A study of Cricetulus griseus with 10 samples.

Results

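CHO-K1 cells, a line derived from the ovary of the Chinese hamster, were adapted to suspension growth in the serum-free medium SFM4CHO, and the results below concern the step to passage 6 (P6) set against passage 4 (P4). Each of these passages had 2 RNA sequencing libraries, out of 10 libraries over passages 0, 2, 4, 6 and 10 (P0 to P10). All libraries are labelled as wild-type CHO-K1, so P6 and P4 cells shared line, genotype and medium and differed by label in passage alone. Nothing in the labels tells if duplicates were grown as separate cultures, so a p-value here covers the spread between the samples at hand, possibly a technical one. The growth of the P0 cells is not described either. Values are the authors' DESeq-normalised reads, and differences are on the scale of log2(value + 1), which understates the change of low genes. A feature was taken as higher or lower at P6 where both P6 libraries lay above, or both below, both P4 libraries. Of 25156 features, 13521 had a mean of at least 10 normalised reads over the 10 libraries and were examined. Of these, 8992 had P6 and P4 libraries that did not overlap, with P6 above in 4413 (32.6%) and P6 below in 4579 (33.9%). Every later count at P6 against P4 is read against these 2 shares.

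CHO-K1 cells normally attach to a surface, and adaptation asks them to grow as single cells in a medium without the adhesion proteins, lipids and growth factors of serum. Attached cells hold on through integrins that bind collagens, laminins and fibronectin, and they build and remodel that matrix themselves. Growth in suspension has to be sustained by cell division, by translation on ribosomes and by the cells' own making or uptake of cholesterol and fatty acids. These processes order the gene groups below. Because whole cultures were sequenced, fewer cells of a kind and less RNA per cell cannot be told apart.

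The depth at P6 was 13678656 and 8394219 reads, against 12465671 and 10399192 reads at P4, and the 10 libraries ranged between 8394219 and 16599495. Correlation of log2 values between duplicates was 0.956 at P6 and 0.992 at P4, with SDs of the log2 difference between duplicates of 0.708 and 0.303. The P10 duplicates lay apart as well (r of 0.930, SD 0.924). The feature Dym, named for a Golgi protein, took 4.32% and 1.15% of normalised reads at P6, against 12.6% and 12.7% at P4, and 1.41% and 10.7% in the P10 duplicates. P6 replicate 2 and P10 replicate 1 were thus the libraries with the lowest Dym shares. With P6 replicate 2 left out, the median log2 difference of ribosomal protein genes was -0.37 in place of -0.90. This is the median of P6 replicate 1 alone against P4, and P10 libraries do not enter it. In that run 28 DNA replication genes in place of 14 lay above P4, and over all features 5835 in place of 4413. Non-overlap is easier to reach with a single P6 library. Of 18 matched mesenchymal markers 15 passed the minimum mean, and Thy1 had no read in any of the 4 libraries. The list summed to 55020 and 48580 normalised reads at P6 and 69630 and 71550 at P4. Of 11 epithelial markers 3 passed the minimum mean, namely Cdh1, Muc1 and Grhl2. Cdh1 lay below P4, with 89.99 and 50.55 normalised reads at P6 against 206.8 and 164.3 at P4. Muc1 lay above (43.82 and 40.44 against 17.81 and 20.98), and the P6 and P4 libraries overlapped for Grhl2. The epithelial list summed to 177.6 and 155.0 at P6 and 285.0 and 227.3 at P4. Krt8, Krt14, Krt18 and Krt19 had at most 4.95 reads in any of the 4 libraries. Ovarian follicle markers summed to 2154 and 1892 at P6 and 2309 and 2140 at P4, mostly from Star, and Nr5a1, a regulator of steroid-producing cells, had at most 8.99. Of 17 leukocyte markers 6 passed the minimum mean and Cd14 and Tyrobp were at 0; they summed to 207 and 309 at P6 and 256 and 279 at P4, and neuronal and muscle markers to 166 and 235 at P6 and 153 and 170.2 at P4. The 14 endothelial markers summed to 1634 and 8608 at P6 and 17720 and 30580 at P4, nearly all of it from Stab2 and Eng, while Cldn5 was at 0 and Cdh5 had at most 3.37.

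No feature passed limma's test at an adjusted p of 0.05 at P6 against P4, in either direction: 0 of 13521 higher (0.0%) and 0 of 13521 lower (0.0%). The lowest adjusted p was 0.138. At an unadjusted p under 0.05 there were 3450 features (25.5%), 1583 higher and 1867 lower. edgeR's quasi-likelihood test on recovered reads also called 0, and DESeq2 called 247 higher and 216 lower. The count rested on the spread pooled over all passages: without P10 replicate 1 limma called 1722 higher and 1951 lower, and without P10 replicate 2 it called 1746 and 1930, since the P10 duplicates then no longer entered that spread. Leaving out P6 replicate 2 gave 0 higher and 9 lower. The 4 libraries taken alone allow no exact two-sided permutation p under 0.333. The non-overlap of libraries is therefore a description of these 4 libraries, and single genes below are given as lying above or below P4.

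Most of the separations were narrow. The median gap between the nearest P6 and P4 libraries was 0.30 log2 units for features with P6 above and -0.32 for those with P6 below. A gap over 1 log2 unit occurred in 197 features with P6 above and 369 with P6 below, and a gap over 2 in 10 and 39. At the edge of the rule, Mtf2 had 718 and 649.4 normalised reads at P6 against 649.1 and 641 at P4, just inside, and Stt3b had 1900.0 and 1841.3 against 1841.4 and 1743.6, just outside. On the other side, Stard7 (1183.2 and 858 at P6, 1183.4 and 1192 at P4) was just inside and Tm9sf4 (797.4 and 747 at P6, 812 and 797.2 at P4) just outside. The duplicates of P6 were not equally far from P4. Replicate 2 was the farther one in 70.3% of features with P6 above (median log2 difference from P4 of 0.44 in replicate 1 and 0.66 in replicate 2) and in 83.8% of features with P6 below (-0.44 and -0.90).

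Among genes with a symbol and a mean of at least 50 over the 4 libraries, the widest gap with P6 above was that of Gatm, which makes the precursor of creatine. Gatm had 432 and 1230.2 normalised reads at P6 and 75.2 and 86.2 at P4, on average 10.3-fold higher. P6 replicate 2 was the highest of the 10 libraries for Gatm, followed by P10 replicate 1 (1045), while P10 replicate 2 (93.6) lay near the P4 values. Slc38a1, a carrier for glutamine and other neutral amino acids, came second with 93.9 and 172 at P6 against 12.9 and 23.3 at P4. Rab9a, a GTPase of the traffic between late endosomes and the Golgi, had 319 and 1131 at P6 against 109 and 104 at P4, and Cd84, a surface receptor best known from leukocytes, had 1852 and 6422 against 719 and 493. In all 4 of these genes replicate 2 exceeded replicate 1 by a wide margin. Replicate 1 also lay far above P4, which the choice by widest gap required.

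A second set of genes lay above P4 to nearly the same extent in both P6 libraries. Pfn1, the actin monomer binding protein profilin, had 1757 and 2039 normalised reads at P6 and 666 and 671 at P4 (on average 2.84-fold higher, limma adjusted p = 0.161). Tecr, the reductase of very-long-chain fatty acid elongation, had 4921 and 5163 at P6 against 1570.3 and 1795 at P4. Sqle, squalene epoxidase of the cholesterol pathway, had 3525 and 4502 against 1126 and 1360.2. Znf770, a zinc finger gene, had 473 and 488 against 160.3 and 139.9, the closest pair of P6 values among these 4. The remaining genes among the 15 widest gaps were CUNH11orf24 (696 and 937 at P6 against 242 and 240.1 at P4), Etfrf1, a regulator of electron transfer flavoprotein (275 and 307 against 88.1 and 111), and 5 genes of chromosome segregation or division. Those 5 were Cenpx, a centromere protein; Cdkn3, a phosphatase that acts on cyclin-dependent kinases; Smc2, the core of condensin; and Ube2c and Cdc26, which work in the anaphase-promoting complex. Smc2 had 8589 and 11141 at P6 against 3452 and 3262 at P4, and Cdc26 2248 and 3753 against 904 and 819. The 15 genes lay between 2.74-fold higher (Cdkn3) and 10.3-fold higher (Gatm) at P6 by the ratio of means.

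**Figure D1:**
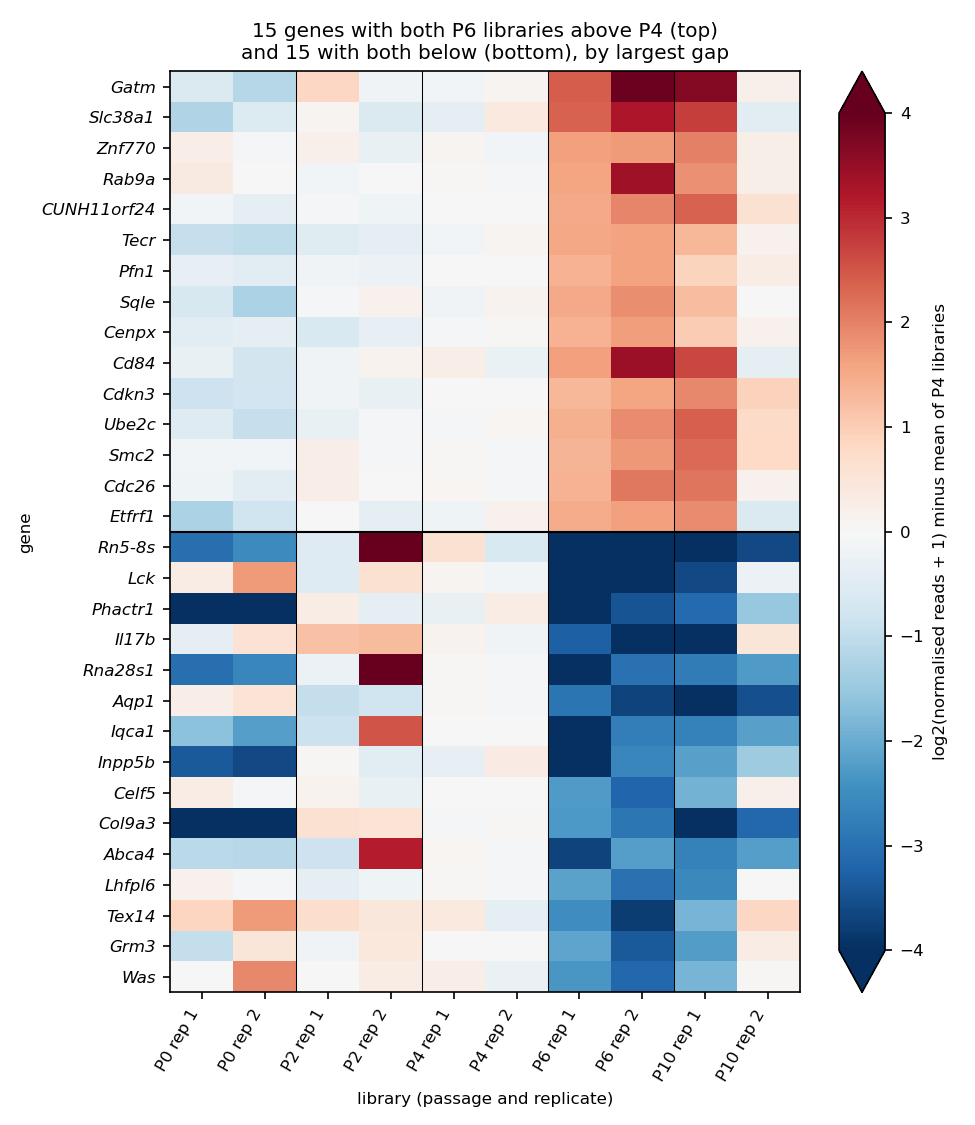
Colours give log2(normalised reads + 1) minus the mean of the 2 P4 libraries, for the 15 genes with the widest gap above P4 (top) and the 15 with the widest gap below (bottom), in all 10 libraries in passage order; the scale stops at 4 in each direction. P10 replicate 1 carries the same colours as P6 in nearly all rows, while P10 replicate 2 stays near P4 for genes such as Gatm, Lck and Grm3.

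The widest gap with P6 below belonged to a ribosomal RNA feature, Rn5-8s, with 21.1 and 21.3 normalised reads at P6 against 4148 and 1819 at P4. Another, Rna28s1, had 571 and 1630.1 against 13514 and 12463. Ribosomal RNA had been removed with a kit, and both features were uneven between duplicates elsewhere: at P2 they reached 1914 and 91613 (Rn5-8s) and 11001 and 239090.0 (Rna28s1). Iqca1 and Abca4, also among the 15 widest gaps and set beside them after their values were seen, had a like P2 profile, with 4804 and 49597 for Iqca1 and 8277 and 130380.0 for Abca4. At P6 Iqca1 had 343 and 1282 against 8546 and 8756 at P4, and Abca4 had 1118 and 3174 against 15480.0 and 13937. These 4 thus peaked in P2 replicate 2. A pair of further ribosomal RNA features, both named Rn18s, did not share this order at P6: one had 88.4 and 4.49 at P6 against 73.2 and 59.4 at P4, and the other 59.5 and 3.37 against 32.7 and 17.5, so that replicate 1 lay above P4 and replicate 2 below. How much ribosomal RNA was left in each library was not tested.

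Lck, a tyrosine kinase best known from T cells, had 20.3 and 34.8 normalised reads at P6 and 617 and 535 at P4, on average 20.9-fold lower. Il17b, a cytokine gene, had 322 and 110.1 at P6 against 3402 and 2858 at P4. Both were high again in P10 replicate 2 (493 for Lck, 4373 for Il17b) and low in P10 replicate 1 (46.4 and 166). Grm3, a metabotropic glutamate receptor, Celf5, an RNA-binding protein, Lhfpl6, Was, an actin regulator of blood cells, and Tex14, known from germ cell bridges, had the same order of libraries. Tex14, the highest of these 5 in normalised reads, had 11845 and 4736 at P6 against 86361 and 49973 at P4. The Dym share was likewise high at P4 (12.6% and 12.7%) and in P10 replicate 2 (10.7%). It was low at P6 (4.32% and 1.15%) and in P10 replicate 1 (1.41%). Whether these genes and Dym differ between libraries for the same reason was not tested.

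Col9a3 and Aqp1 differed from those genes in that both P10 libraries were low too. Col9a3, a chain of collagen type IX, had 147 and 96.6 normalised reads at P6 against 698 and 747 at P4. Aqp1, a water channel, had 68.9 and 39.3 at P6 against 536 and 512 at P4, on average 9.69-fold lower. Across passages, Aqp1 had 625 and 773 at P0, 273 and 304 at P2 and 8.44 and 44.5 at P10, so that P6 and P10 were the low passages and every library of the 3 earlier passages exceeded every library of the 2 later ones. Inpp5b, an inositol phosphatase, and Phactr1, a regulator of actin and of a protein phosphatase, were lower at P0, P6 and P10 than at P2 and P4. The Inpp5b values were 1141 and 3259 at P6 against 15833 and 24505 at P4, while P0 libraries held 1905 and 1619.7, P2 libraries 20425 and 14497 and P10 libraries 4336 and 7369.

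The lowest limma p-values at P6 against P4 mostly belonged to genes with smaller gaps than those above. Angpt4, an angiopoietin ligand of the receptor Tek, had 743 and 565 normalised reads at P6 and 2146 and 2169 at P4 (log2 difference -1.73 ± 0.20, SE, limma adjusted p = 0.138). Fabp4, a fatty acid carrier of adipocytes, had 344 and 238 at P6 against 1016 and 976 at P4 (-1.80 ± 0.22). Il1r2, the decoy receptor for interleukin 1, had 95.5 and 88.8 against 289 and 289 (-1.64 ± 0.21), and Serpinf1, which encodes a secreted inhibitor of vessel growth, had 1682 and 1345 against 3615 and 3510.5 (-1.24 ± 0.19). In the other direction, Kif20a, a kinesin of cytokinesis, had 1961 and 2063 at P6 and 927 and 895 at P4 (1.14 ± 0.21). Uck2, a uridine and cytidine kinase, had 1175 and 874 against 425 and 436 (1.23 ± 0.25), and Galntl6 had 2057 and 1721 against 935 and 973 (0.98 ± 0.19). None of these adjusted p-values was under 0.05, and with Angpt4, Fabp4 and Il1r2 each at 0.138 they were the smallest of the comparison. The 5 genes of lowest p in each direction also included Pfn1, Cenpx and Inpp5b, named above.

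Genes of the G2 and M phases of the cell cycle lay mostly above P4. In this list 23 of 35 tested members (65.7%) lay above P4 and 3 (8.57%) below, with a median log2 difference of 0.48 beside -0.0074 over all features, and none was called by limma. The medians were 0.60 in P6 replicate 1 and 0.42 in replicate 2. Ube2c had 1100.3 and 1521 normalised reads at P6 against 386 and 437 at P4, on average 3.19-fold higher. Ccna2, the cyclin of S phase and mitotic entry, had 3614 and 4441 against 1491 and 1381 (log2 difference 1.48 ± 0.30, SE, limma adjusted p = 0.179). Prc1, which bundles the microtubules of the central spindle, had 7171 and 9791 against 3270.2 and 3181. The P6 values of these genes were all over 2 times the P4 values. They were named as the members with the widest gaps above P4, so this separation follows from the choice. The 3 members below P4 were Aurkb, Aurka and Espl1, 2 Aurora kinases and separase. Aurkb had 167 and 144 at P6 against 297 and 248 at P4, whereas Aurka (472 and 351 against 477 and 477) lay below by a margin smaller than the distance between its P6 duplicates. Mki67, the proliferation marker, had 1408 and 3050.1 at P6 and 993 and 1032 at P4. Over the series Mki67 had 4436 and 3002 at P0, 1494 and 1639.5 at P2 and 3189.6 and 1343 at P10, so its P4 values were the lowest of all passages.

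Genes of DNA replication and S phase did not share that direction as a list. Here 14 of 45 tested members (31.1%) lay above P4 and 9 (20.0%) below, and the median was 0.044, with 0.24 in P6 replicate 1 and -0.10 in replicate 2. The members above P4 included the licensing factor Cdt1, with 171 and 172 normalised reads at P6 against 77.2 and 80.4 at P4, and the cyclin Ccne2, with 97.0 and 91.0 against 31.7 and 47.8. Gins4, a subunit of the replicative helicase complex, had 680.0 and 636 against 362 and 321. Members below P4 included E2f1, a transcription factor of S phase entry (200.3 and 96.6 against 265 and 229.6), and Uhrf1, which keeps DNA methylation through replication (548 and 286 against 710.5 and 721). For both of these, P6 replicate 2 was the lower library.

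Genes of cytosolic ribosomal proteins lay mostly below P4. In this list 4 of 67 tested members (5.97%) lay above P4 and 48 (71.6%) below, with a median log2 difference of -0.90 and no call by limma (at an unadjusted p under 0.05, 3 higher and 33 lower). The P6 libraries disagreed on the size: the median was -0.37 in replicate 1 and -1.35 in replicate 2. Rps27 had 1701 and 510.0 normalised reads at P6 against 6893 and 5868 at P4. Rps28 had 756 and 304 against 3109 and 2688, and Rplp2, of the ribosomal stalk, 2071 and 865 against 7348 and 6514. In each of these, P6 replicate 2 was lower than replicate 1 by over 2 times. The 4 members above P4 were Rpl23a, Rpl12, Rpl4 and Rpl5. Rpl23a had 21279 and 45517 at P6 against 13796 and 14152 at P4, and Rpl12 4119 and 4462 against 2549 and 2372. The list's log2 differences ran between -2.77 and 1.16. Ribosomal protein genes have many near-identical copies in mammalian genomes, so these counts are uncertain. The P6 library with the lower Dym share, replicate 2, was the one with the lower median.

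Nuclear genes of the respiratory chain had the same order of libraries. Of them, 3 of 27 tested members (11.1%) lay above P4 and 17 (63.0%) below, with medians of -0.29 in P6 replicate 1, -0.94 in replicate 2 and -0.60 for both together. Ndufs7, a subunit of complex I, had 196 and 73.0 normalised reads at P6 against 499 and 534 at P4, and Ndufv1, of the same complex, 1469.6 and 619 against 2428 and 2429. Sdhd, a membrane anchor of succinate dehydrogenase, had 724 and 362 against 1279 and 1170.2. Ndufa10, also of complex I, lay the other way with 3213 and 3256 at P6 against 1525 and 1544 at P4. In mitochondrial ribosomal proteins, 10 of 48 tested members (20.8%) lay above P4 and 23 (47.9%) below, a weaker lean than in the cytosolic set by count.

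**Figure D2:**
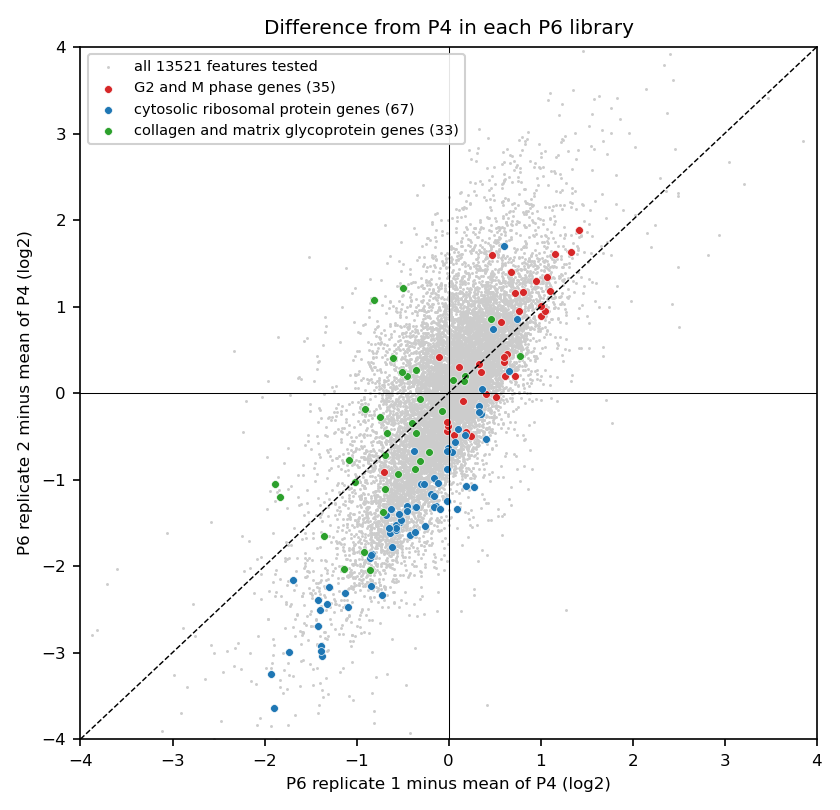
Each point is a feature, placed by the log2 difference of P6 replicate 1 (x axis) and P6 replicate 2 (y axis) from the mean of P4; grey points are all features tested, with 33 outside the axes, and colours mark 3 gene lists. Most G2 and M phase genes lie in the upper right, and ribosomal protein genes fall below the dashed line of equality, with medians of -0.37 (replicate 1) and -1.35 (replicate 2).

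Collagens and matrix glycoproteins lay mostly below P4, and here the P6 duplicates gave like medians. In this list 4 of 33 tested members (12.1%) lay above P4 and 20 (60.6%) below, with medians of -0.55 in replicate 1, -0.47 in replicate 2 and -0.51 together. Without the minimum mean, which adds members with few reads, the median was -0.19. Col6a1 and Col6a2 encode chains of collagen type VI. Col6a1 had 1845 and 1506 normalised reads at P6 against 4717 and 4728 at P4 (log2 difference -1.50 ± 0.26, SE, limma adjusted p = 0.179), and Col6a2 had 514 and 271 against 888 and 1059.5. Col16a1, a minor fibril-associated collagen, had 1741 and 937 against 3756 and 3898. Lum, the proteoglycan lumican, had few reads at both passages, with 21.1 and 38.2 at P6 against 73.2 and 88.6 at P4. Its values were 227 and 196 at P2 and 9.28 and 3.12 at P10. Members above P4 were Vcan, the large proteoglycan versican (357 and 471 against 250.3 and 269), Adamtsl2, a binding partner of fibrillin (202 and 158 against 129.6 and 107), Efemp1, a fibulin (1285 and 1259 against 1099 and 1192), and Tnc, the adhesion-modulating glycoprotein tenascin C.

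Basement membrane genes had the same lean, with 10 of 14 members (71.4%) below P4 and 2 (14.3%) above, and a median of -0.39. Lamb1, a laminin beta chain, had 12214 and 10295 normalised reads at P6 against 19300.0 and 18457 at P4, and Lama5, a laminin alpha chain, 3517 and 2908 against 6012 and 7679.6. Col4a2, of collagen type IV, was above P4 with 175 and 126 at P6 against 119 and 120.0, a separation smaller than that between its P6 duplicates. In matrix proteases and their inhibitors, 3 of 23 tested members (13.0%) lay above P4 and 18 (78.3%) below (median -0.49, with -0.31 in replicate 1 and -0.61 in replicate 2). Mmp11, a matrix metalloproteinase, had 97.8 and 34.8 at P6 against 167 and 163 at P4, and Plau, the urokinase plasminogen activator, 247 and 171 against 405 and 406. Integrins and focal adhesion genes were nearer to the background, with 6 above and 17 below of 38 (median -0.17).

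The cholesterol synthesis pathway was split. Here 8 of 19 tested members (42.1%) lay above P4 and 8 (42.1%) below, and the median was -0.31 (-0.031 in replicate 1, -0.58 in replicate 2). Of the early steps that make mevalonate and its phosphates, the kinase Mvk had 545 and 212 normalised reads at P6 against 841 and 864 at P4, and the kinase Pmvk lay below as well (157 and 131 against 258 and 365). Idi1, which isomerises the isoprene unit, lay above with 5819 and 6112 against 3524 and 3170.2. Of the sterol branch, Sqle had the widest gap, followed by Nsdhl, which removes methyl groups from sterols, with 1280.3 and 2018 at P6 against 576 and 636 at P4. Sc5d, a sterol desaturase, had 4343 and 3657 against 2736 and 2736, whereas Ebp, a sterol isomerase, lay below with 1402 and 679.7 against 1443 and 1471. Both directions thus occurred in both branches.

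Genes of sterol sensing and LDL uptake had no member above P4 and 10 of 15 below (66.7%), with a median of -0.41. Vldlr, a lipoprotein receptor, had 205 and 155 normalised reads at P6 against 343 and 359 at P4. Abca1, the cholesterol exporter, had 4594 and 4316 against 7399 and 7085, and Lrp1, a large endocytic receptor, 1002 and 967 against 1616 and 2039.7. Among genes of fatty acid uptake and lipid droplets, 2 of 19 tested members (10.5%) lay above P4 and 9 (47.4%) below (median -0.25, with -0.078 in replicate 1 and -0.45 in replicate 2). By replicate 2 alone 14 members lay below, and over all 13521 features 6361 did so, in place of 4579 by both replicates. Besides Fabp4, the lower members included Plin4, a coat protein of lipid droplets, with 1496 and 1126 at P6 against 3307 and 3852 at P4. Pparg, a nuclear receptor that controls adipocyte genes, Fabp4 among them, lay above P4 at 4413 and 6698 against 3670.0 and 3521.

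Lysosomal genes lay mostly below P4: 2 of 34 tested members (5.88%) lay above P4 and 24 (70.6%) below, with a median of -0.42 (-0.24 in replicate 1 and -0.60 in replicate 2). Ctsz, a cathepsin, had 5134 and 2689.5 normalised reads at P6 against 10955 and 10826 at P4, and Psap, the precursor of the saposins, 1276 and 889.8 against 2292 and 2826. Glb1, lysosomal beta-galactosidase, had 704 and 433 against 1253 and 1082. The 2 members above P4 were Ctsh and the channel Mcoln1. Interferon response genes had 4 members above and 15 below of 24 (16.7% and 62.5%), with a median of -0.49 (-0.27 and -0.74 in replicates 1 and 2). The widest gaps below P4 were in genes of antigen processing: Psmb8, a subunit of the immunoproteasome, had 443 and 206 at P6 against 1054 and 971 at P4, and Tap1, the peptide transporter, 199 and 83.1 against 398 and 385.

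**Figure D3:**
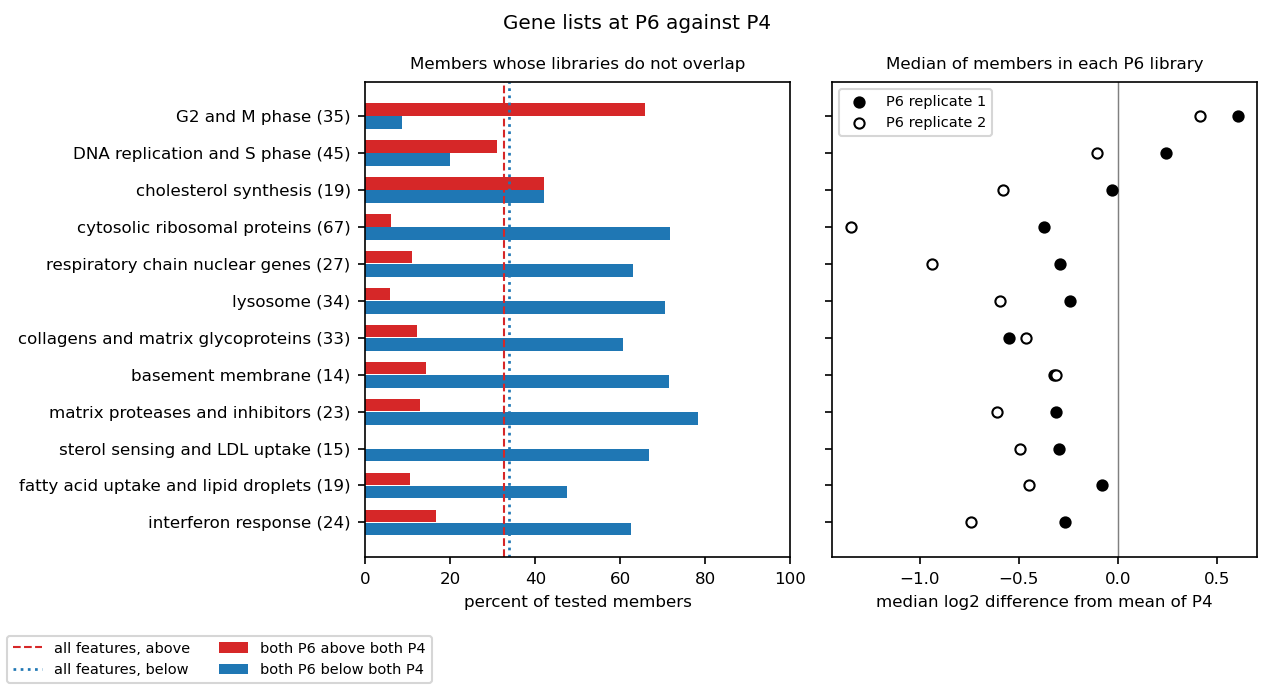
The left panel gives the percent of tested members (number in brackets) with both P6 libraries above (red) or below (blue) both P4 libraries, with lines at the shares over all features, 32.6% and 33.9%. The right panel gives the median log2 difference of each P6 library from the mean of P4, and replicate 2 is the lower one in 10 of the 12 lists.

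Of the 46 lists with at least 10 tested members, 34 had more members below P4 than above and 9 had more above. TGF-beta and BMP signalling was among the 9, with 11 above and 6 below of 25 (median 0.37): Smad5 had 901 and 1116 normalised reads at P6 against 519 and 473 at P4 and Smad4 299 and 453 against 188 and 185, both transducers of the pathway, while the ligand Tgfb1 had 115 and 59.5 against 195 and 186. Wnt and Notch genes had 2 above and 14 below of 26, glycolysis and lactate genes 3 and 15 of 25, and NRF2 and oxidative stress genes 8 and 17 of 32. Chaperones of the endoplasmic reticulum were close to the shares over all features, with 8 above and 9 below of 26. Splicing factors had 16 above and 11 below of 43, and histone genes had a single tested member.

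Secreted peptides of blood pressure control lay on different sides of P4. Nppa, the atrial natriuretic peptide, had 6264 and 2837 normalised reads at P6 against 1950.3 and 1959 at P4, and the related Nppb had 4234 and 1658 against 5745 and 5508, so Nppa lay above and Nppb below. Agt, the precursor of angiotensin, had 549 and 289 at P6 against 1448 and 1452 at P4, on average 3.46-fold lower. Igfbp4, which binds insulin-like growth factors, had 496 and 327 at P6 and 667 and 859 at P4, both far under its P0 values of 5475 and 3752. Aqp3, another water channel, lay below like Aqp1, with 37.6 and 22.5 against 96.0 and 87.4.

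**Figure D4:**
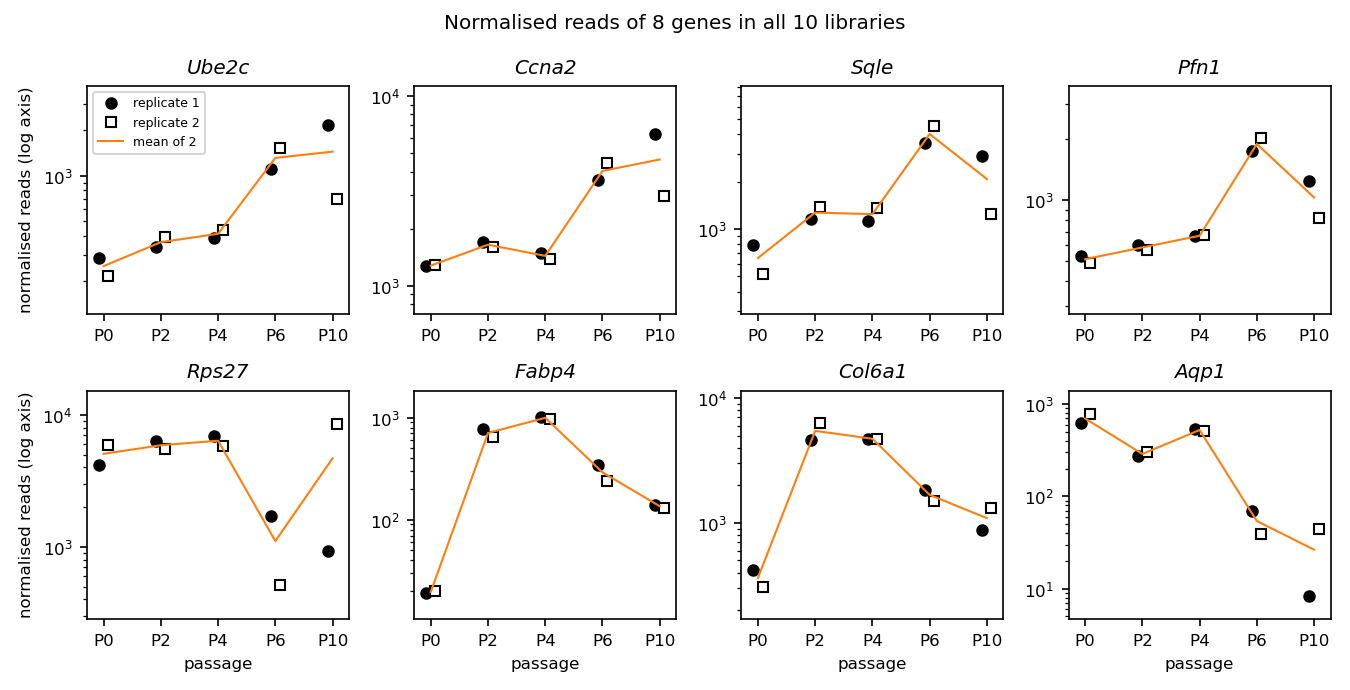
Normalised reads (log axis) of 8 genes in each library, with passages in order on the x axis, filled circles for replicate 1, open squares for replicate 2 and a line through the means. The P6 libraries lie above both P4 libraries for the upper 4 genes and below for the lower 4, and Rps27 is the one whose P10 libraries are farthest apart in ratio, at 922 and 8473.

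Some genes differed widely between the P6 duplicates. Acoxl, related to acyl-CoA oxidases, had 68.1 and 4593 normalised reads at P6 and 10269 and 17782 at P4, and Stab2, a scavenger receptor of endothelial cells, had 137 and 6829 at P6 and 16165 and 28647 at P4. Dtnb, a dystrobrevin, had 488 and 15849 at P6 and 12879 and 26688 at P4. In these 3 genes P6 replicate 1 was below the P0 values or between them (126 and 71.9 for Acoxl, 294 and 177 for Stab2, 510.4 and 447 for Dtnb), while replicate 2 lay closer to P4. Phactr1 had the same order, at 39.1 and 519 at P6 against 4710.0 and 6967 at P4. The opposite order was seen for Dym, with 462630.0 and 108600.0 at P6 and 1554600.0 and 1540600.0 at P4, and for Comtd1, a methyltransferase-like gene, with 65.7 and 7.86 at P6 and 86.1 and 96.7 at P4. Both P6 libraries lay below both P4 libraries for Acoxl, Stab2, Phactr1, Dym and Comtd1, whereas P6 replicate 2 fell between the P4 values for Dtnb.

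P10 and P2 libraries entered the choice of features only through the minimum mean over the 10 libraries. Without that minimum, features with P6 above P4 that were called higher at P10 against P2 numbered 36 in place of 80. P10 and P2 libraries were compared in the same fit, whose pooled spread also includes the P6 and P4 libraries. Close duplicates at P6 and P4 thus favour both a call at P10 against P2 and non-overlap at P6 against P4. The limma calls are therefore not independent of the choice of features. Over all features, both P10 libraries lay above both P2 libraries in 3057 (22.6%) and below in 2710 (20.0%), and limma called 84 higher (0.621%) and 86 lower (0.636%). Among the 4413 features with P6 above P4, 40.8% had P10 above P2 and 4.15% had P10 below. Among the 4579 features with P6 below P4, 32.2% had P10 below P2 and 3.87% had P10 above. Among the 4529 features that overlapped at P6 against P4, the shares were 23.8% above and 23.3% below. Of the 170 features called at P10 against P2, 156 lay on the same side at P6 against P4: 80 that rose lay above P4 at P6, and 76 that fell lay below. One called feature lay on the opposite side, Efemp1, which lay above P4 at P6 and fell at P10 against P2.

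The P10 duplicates did not share this relation, and P10 replicate 1, like P6 replicate 2, was a library with a low Dym share. P10 replicate 1 lay above both P2 libraries in 89.6% of features with P6 above P4, against 45.1% of all features, and below in 90.3% of features with P6 below P4, against 45.7% of all. P10 replicate 2 did so in 41.6% (45.1% of all) and 33.1% (38.9% of all). Across the 13521 features, which are not independent replicates, the log2 difference of P6 from P4 had a Pearson r of 0.841 with that of P10 replicate 1 from P2 and -0.083 with that of P10 replicate 2 from P2. The limma calls at P10 against P2 among features on the same side at P6 against P4 also depended on the libraries in the fit. Without P10 replicate 2 there were 1804 higher and 1518 lower, and without P10 replicate 1 there were 47 and 63. Without P2 replicate 1 there were 3 and 15, without P2 replicate 2 there were 0 and 5, without P4 replicate 1 there were 9 and 26, and without P4 replicate 2 there were 9 and 27. Without either P0 library there were 16 and 37, and from the 4 libraries of P10 and P2 alone there were 0 and 0.

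**Figure D5:**
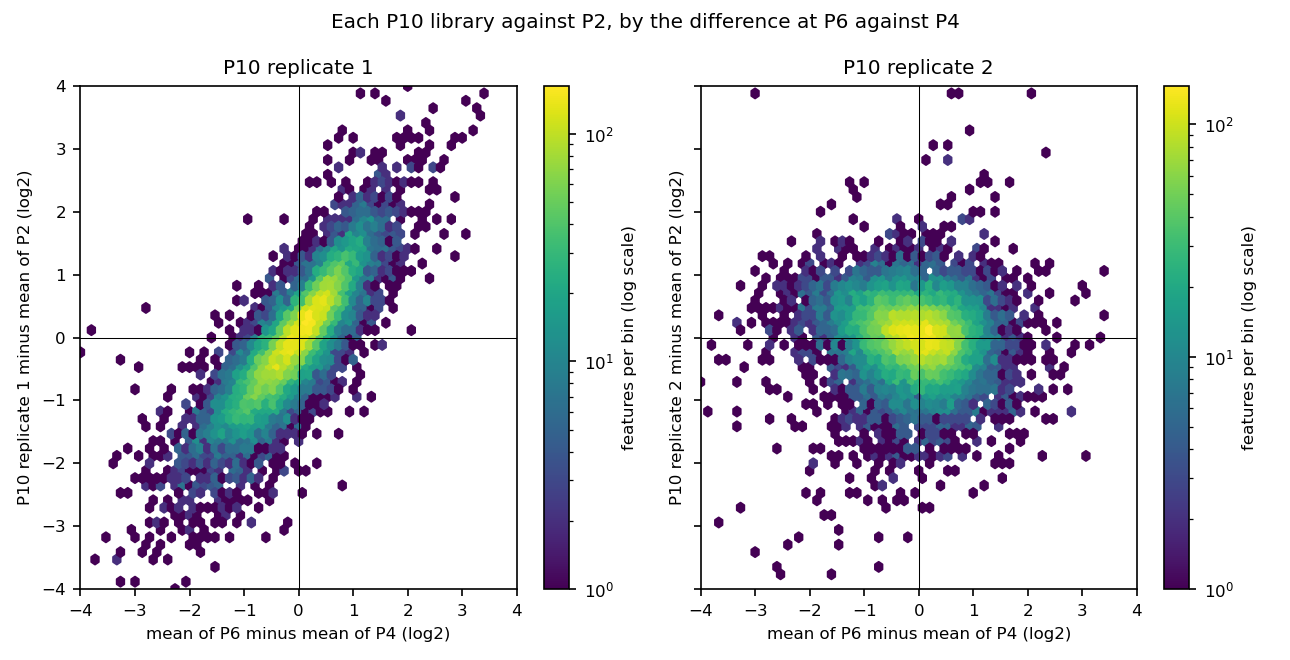
Each panel bins the 13521 features by the log2 difference of mean P6 from mean P4 (x axis) and of 1 P10 library from mean P2 (y axis), coloured by the number of features per bin on a log scale. P10 replicate 1 rises along the diagonal (r of 0.841) and P10 replicate 2 forms a round cloud (r of -0.083).

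Genes that passed the test at P10 against P2 and lay on the same side at P6 against P4 are named here after their values were seen. Angpt4 fell at P10 against P2, with 229.5 and 311 normalised reads at P10 and 2117 and 2069 at P2 (log2 difference -2.97 ± 0.20, SE, limma adjusted p = 0.000989). Il1r2 fell alike, with 32.1 and 41.4 at P10 and 311 and 274 at P2. Fabp4 had 141 and 130.3 at P10 against 771 and 644 at P2, Agt 70.0 and 124 against 818 and 734, and Pltp, a phospholipid transfer protein, 415 and 972 against 3150.3 and 3434, and all 3 fell. In the other direction Kif20a rose, with 2595 and 1662 at P10 and 921 and 842 at P2 (log2 difference 1.24 ± 0.21, SE, limma adjusted p = 0.0368). Uck2 (1458 and 892 against 419 and 387), Bmp5, a ligand of the BMP family (log2 difference 1.78 ± 0.29), and Ptma, the nuclear protein prothymosin alpha (15054 and 11164 against 5419.6 and 5275), rose too. Cbx5, a heterochromatin protein, rose with 2840.3 and 1362 at P10 against 686 and 678 at P2. In all of these genes both P10 libraries lay on the same side of both P2 libraries.

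The gene lists did not all keep their direction in the P10 and P2 libraries, where the shares over all features were 22.6% above P2 and 20.0% below, with 0.621% called higher and 0.636% lower. In the G2 and M phase list, 31 of 35 members lay above P2 in both P10 libraries and none below, and 6 rose by limma (Ccnb2, Bub1, Bub1b, Kif20a, Nusap1 and Pttg1), with medians of 1.01 in P10 replicate 1 and 0.70 in replicate 2. DNA replication genes, which were split at P6, had 35 of 45 above and none below, and 3 rose. Collagens and matrix glycoproteins had 24 of 33 members below P2, of which 10 fell by limma, with medians of -0.83 and -0.83. The 10 that fell were Col1a1, Col3a1, Col6a1, Col6a2, Fn1 (fibronectin), Thbs1 (a thrombospondin), Postn (periostin), Lum, Dcn (decorin) and Efemp1, and all but Efemp1 lay below P4 at P6. Adamtsl2 rose. Of the ribosomal protein genes, 16 of 67 lay above P2, a share near that over all features, and none below, and the medians were -0.38 in P10 replicate 1 and 0.77 in replicate 2. Respiratory chain genes were likewise on opposite sides, at -0.44 and 0.39. Lysosomal genes had 17 of 34 below P2 and 3 above, and none passed the test.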

How the data were processed

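Per the labels' protocols and the series' design text, TRIzol was used to extract RNA, a Ribo-Zero kit to deplete ribosomal RNA and a TruSeq Stranded kit for libraries, which a MiSeq sequenced. The deposited table holds a signal value per feature and library, a read count that the authors normalised using DESeq, the tool that the submitters' processing notes name. No aligner, counting rule, build or annotation is named in the sources used here. All values (100.0%) were whole multiples of 1 step per library within 0.01 reads, and reads were recovered from that step for the count-based alternatives; the step of P4 replicate 1 is close to 1, so there the check is weaker. Of 20050 features given by a gene number, 16386 matched a symbol in RefSeq's gene table of the assembly CriGri-PICRH-1.0, used for names only.

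limma 3.58.1 (R 4.3.3) was fitted to log2(value + 1) of all 10 libraries, with a mean per passage, a trended prior, 5 residual degrees of freedom and two-sided Benjamini-Hochberg adjustment over 13521 features. edgeR 4.0.16 and DESeq2 1.42.0 served as alternatives. Replicates were compared, and none of the duplicates agreed within sampling noise (chi-square per degree of freedom of at least 6.76). A gap is the log2 distance between the nearest P6 and P4 libraries. Lists held 1660 entries, of which 1422 matched a feature. Named genes, with a mean of at least 50 over P4 and P6 and a proper symbol, were the 15 largest gaps and 5 smallest p per direction, up to 4 largest gaps per list and direction, the 5 largest differences per direction between P6 duplicates, and 6 genes of an earlier account; Tnc, Ebp and the members called at P10 against P2 were named after their values were seen. The members and lists were chosen with earlier results of these data known. Depth limits precision through counting error at low reads. Some genes of the lists are not reported here.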

Additional observations from a re-analysis of the deposited data

How the results depend on the processing

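No named gene changed sign at P6 against P4 under any alternative run. Most were chosen for non-overlap, so their sign could not change when libraries were left out, weighted or blocked. Of the medians of the 12 lists plotted, the one of DNA replication changed sign, at -0.10 without P6 replicate 1. The number of features called at P6 against P4 (0 higher, 0 lower) stayed at 0 with a pseudocount of 5, without the filter, with a mean of at least 50, with TMM scaling, in edgeR and with the replicate block. It became 247 higher and 216 lower in DESeq2, 686 and 1003 with array weights, 1 and 3 from the 4 libraries alone, and 1887 and 1825 without P6 replicate 2 and P10 replicate 1 together. Leaving out 1 library at a time gave 0 to 1746 higher and 0 to 1951 lower. DESeq2 called 84 of the 384 named genes and array weights 174. Calls at P10 against P2 among features with P6 above (80) or below (76) numbered 36 higher without the filter, 50 higher in edgeR, 450 and 263 in DESeq2, 0 and 0 from the 4 libraries of P10 and P2, 11 and 27 with array weights, and 943 and 645 with P6 replicate 2 and P10 replicate 1 left out; leaving out 1 library gave 0 to 1804 and 5 to 1518. The shares with P10 on the same side ranged over 32.3% to 89.6% (above) and 27.5% to 90.3% (below). The upper ends came from P10 replicate 1 alone against P2, where the shares over all features were 45.1% above and 45.7% below. Beyond the P10 duplicates leaving the pooled spread, as given above, the cause of these changes in counts and shares was not tested. The runs with DESeq2, edgeR, array weights or another filter kept all 10 libraries.

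The replicate block, which adds the replicate number to the model, left 0 calls at P6 against P4 and 11 higher and 36 lower at P10 against P2. The numbers were not taken as pairing: the duplicate differences of P6 and P4 correlated at 0.0034 over features, and those of P10 and P2 at 0.225.

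List medians moved with the filter for collagens and matrix glycoproteins (-0.19 without it, -0.57 at a mean of at least 50), for basement membrane genes (-0.37 and -0.43) and for sterol sensing (-0.56 at a mean of at least 50). The basement membrane median was -0.42 with TMM, -0.38 in edgeR, -0.37 in DESeq2 and -0.32 with P6 replicate 2 left out, whether P10 replicate 1 was kept or not. In that last run 28 DNA replication genes and 5835 of all features lay above P4. Without 1 library, medians ranged over 0.42 to 0.60 (G2 and M phase), -0.10 to 0.24 (DNA replication, 15 to 28 genes above), -1.35 to -0.37 (ribosomal proteins), -0.94 to -0.29 (respiratory chain), -0.60 to -0.24 (lysosome), -0.55 to -0.46 (collagens), -0.41 to -0.31 (basement membrane), -0.61 to -0.31 (proteases), -0.58 to -0.031 (cholesterol), -0.50 to -0.30 (sterol sensing), -0.45 to -0.078 (fatty acid uptake, 9 to 14 genes below) and -0.74 to -0.27 (interferon). Over all features, leaving out 1 library of P4 or P6 gave 5064 to 6176 above P4 and 5202 to 6361 below. With 2 libraries per passage and as few as 8394219 reads, small differences in low genes were not detectable. Large differences at P6 against P4 did not pass in the main fit either. Gatm, on average 10.3-fold higher at P6, had a limma adjusted p of 0.179.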
